A study of Mus musculus with 10 samples.

Results

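The osteoclast genes described here are 9 genes, Tnfrsf11a, Oscar, Nfatc1, Dcstamp, Ocstamp, Atp6v0d2, Acp5, Ctsk and Calcr, out of 19938 genes that had a probe set listing 1 gene only. They were taken by symbol, and each was represented by 1 probe set, so no choice between probe sets was needed. Gene expression in bone marrow (BM) of transplanted mice was measured on 10 Affymetrix arrays, and the question was whether fetal exposure of hematopoietic stem cells (HSCs) to vitamin D deficiency left a mark on the BM they rebuilt. Fetal liver HSCs (FL-HSCs) came from embryos of C57BL/6 dams, carrying the CD45.2 allele, that were fed a vitamin D-deficient diet [VD(-)] or a vitamin D-sufficient diet [VD(+)] from before pregnancy. All recipients, in both groups, were vitamin D-sufficient C57BL/6 mice with the CD45.1 allele, of both sexes, that had been lethally irradiated, so the diet differed between donors and not between recipients. Each group had 5 arrays, of which 3 were labelled as single samples and 2 as pools. The labels give the mice an age of 8 weeks, which the methods give as the age of the recipients at transplant. Their age at collection is thus not settled. The interval from transplant to collection is not settled by the sources used here.

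Osteoclasts are multinucleated, bone-resorbing cells of the hematopoietic lineage. Their precursors, cells of the monocyte and macrophage line, carry RANK, the receptor encoded by Tnfrsf11a, and RANK ligand from osteoblasts, osteocytes and stromal cells, with CSF1, starts their differentiation. Signals from RANK and from ITAM-coupled receptors such as OSCAR raise NFATc1, the transcription factor that switches on the genes of cell fusion (Dcstamp, Ocstamp, Atp6v0d2) and of resorption (Acp5, Ctsk), and mature cells also carry the calcitonin receptor (Calcr). In BM taken from the marrow cavity osteoclasts are rare, since they sit on the bone surface. In such bulk RNA, fewer osteoclasts and less RNA per osteoclast cannot be told apart.

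Before any comparison, the arrays were checked against their labels. The sample descriptions name BM in one field and BM macrophages in another, and the arrays carried genes of several lineages, with the neutrophil gene S100a8 between 12.60 and 12.73 and the red cell gene Alas2 between 10.69 and 11.06 on the log2 scale. The mean over 3 genes of the Y chromosome, Eif2s3y, Kdm5d and Uty, was 2.25 to 2.56 in the 5 VD(+) arrays and 2.35 and 2.44 in VD(-) replicates 2 and 3, against 5.31 to 6.80 in VD(-) replicate 1 and both VD(-) pools. These 3 VD(-) arrays with Y-linked signal thus stand apart from the other 7. Xist, the X inactivation RNA of female cells, read 7.76, 8.14 and 9.83 in VD(-) replicate 1, pool 1 and pool 2. In the other 7 arrays it read 10.08 to 10.33. Signal of male cells was thus seen in these 3 arrays alone, so the sex of the cells was not balanced between the groups. Its part in the differences was not tested. The difference of each member is also given without these 3, which leaves VD(-) replicates 2 and 3 against the 5 VD(+) arrays. Whether the pools hold RNA of the mice also run as singles is not stated, so p-values measure only the spread between these arrays. All values are log2 values after robust multi-array averaging (RMA), in which a difference of 1 is a doubling.

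None of the 9 osteoclast genes differed between VD(-) and VD(+) HSC recipients at an adjusted p under 0.05 (limma with Benjamini-Hochberg adjustment over 35556 probe sets), where 0.118% of all probe sets did. At an unadjusted p under 0.05, 2 of the 9, Ocstamp and Atp6v0d2, were higher in VD(-) recipients, beside 3.85% of all probe sets. At that threshold 0 of the 9 were lower, beside 3.23% of all probe sets. The methods' t-test, run on the same values, gave the same counts, with adjusted p from 0.375 to 0.995. The difference was above 0 for 7 of the 9, with a median of 0.15, whereas the median over all genes was 0.0010 and 50.3% of them lay above 0. Without the 3 arrays with Y-linked signal the members' median difference was 0.017.

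**Figure D1:**
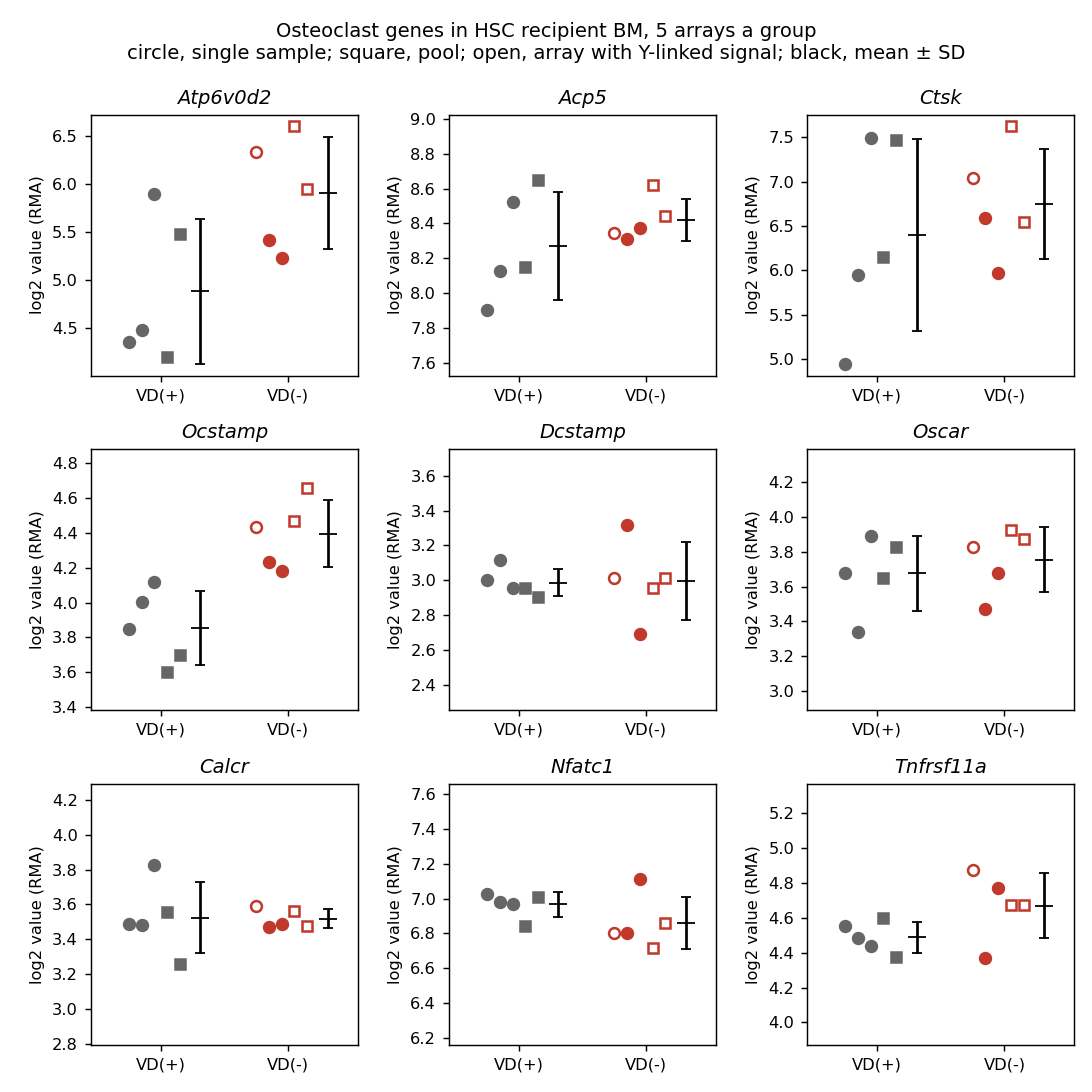
Log2 value (RMA, vertical axis, one scale per panel) of each of the 9 osteoclast genes on the 5 VD(+) arrays (grey) and the 5 VD(-) arrays (red); circles are singles, squares pools, open symbols the 3 arrays with Y-linked signal, and black bars the mean ± SD of 5 arrays. In the Ocstamp panel alone the groups do not overlap, with VD(+) ending at 4.12 and VD(-) starting at 4.18, and the VD(+) arrays of Ctsk spread from 4.95 to 7.49.

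Ocstamp, which encodes OC-STAMP, a membrane protein needed for fusion of osteoclast precursors, was the one member whose groups did not overlap, a pattern that 0.911% of all probe sets showed in this direction. The VD(+) singles read 3.85, 4.001 and 4.12 and the VD(+) pools 3.60 and 3.70, while the VD(-) singles read 4.44, 4.23 and 4.18 and the VD(-) pools 4.47 and 4.66. The gap between the highest VD(+) array, replicate 3, and the lowest VD(-) array, also a replicate 3, was narrow beside the spread inside each group. The mean was 4.40 ± 0.19 in VD(-) and 3.85 ± 0.21 in VD(+) recipients (SD, n = 5 each), a difference of 0.54 (SE 0.12, 95% CI 0.27 to 0.81) or 1.46-fold. The exact two-sided permutation p was 0.00794, the smallest that 5 arrays against 5 allow, and the adjusted p from limma was 0.255. The highest 3 of the 10 arrays were the 3 with Y-linked signal, and without them the difference was 0.35, with an unadjusted p from limma of 0.0494 and an adjusted p of 0.827. The difference was 0.29 among the singles and 0.91 among the pools. That gap of 0.62 between pools and singles had an adjusted p of 1.0 in limma. The Ocstamp probe set read below 4.74, the median over all probe sets, and the deposited table gives no detection call, so whether the probe set stands above background on these arrays cannot be told.

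Atp6v0d2, the d2 subunit of the vacuolar proton pump, which takes part in both osteoclast fusion and acid secretion, showed the widest difference among the members and also a wide spread. The VD(+) singles read 4.36, 4.48 and 5.89 and the VD(+) pools 4.21 and 5.47. The VD(-) singles read 6.33, 5.41 and 5.23 and the VD(-) pools 6.59 and 5.94. The VD(+) arrays fell into a low set of 3 and a high pair, replicate 3 and pool 2, and this pair reached into the VD(-) range. VD(-) arrays averaged 5.90 ± 0.58 and VD(+) arrays 4.88 ± 0.75 (SD, n = 5 each), a difference of 1.02 (SE 0.37, 95% CI 0.20 to 1.84), or 2.03-fold. Its unadjusted p from limma was 0.0197 and its adjusted p 0.618, and the exact permutation p was 0.0635. Here too the highest 3 of the 10 arrays were those with Y-linked signal, and without them the difference was 0.44 (adjusted p from limma 0.953). Leaving out VD(+) replicate 1, VD(+) pool 1 or VD(-) pool 1 took the unadjusted p to 0.0503, 0.0503 and 0.0511, with differences of 0.89, 0.85 and 0.85. Atp6v0d1, the d1 subunit that most cells carry in place of d2, had a difference of -0.072 (SE 0.070, adjusted p from limma 0.863).

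Dcstamp encodes DC-STAMP, the other fusion receptor of osteoclast precursors. It read 2.999, 3.11 and 2.96 in the VD(+) singles and 2.96 and 2.91 in the pools, and 3.01, 3.32 and 2.69 in the VD(-) singles and 2.96 and 3.01 in the pools. The VD(-) singles enclosed the whole VD(+) range, and the difference was 0.011 (SE 0.11, 95% CI -0.22 to 0.24, adjusted p from limma 0.992). Without the 3 arrays with Y-linked signal it was 0.017. Of the 3 fusion genes, Ocstamp and Atp6v0d2 therefore had a confidence interval above 0, and the interval of Dcstamp included 0. Whether Dcstamp differs from them was not tested.

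**Figure D2:**
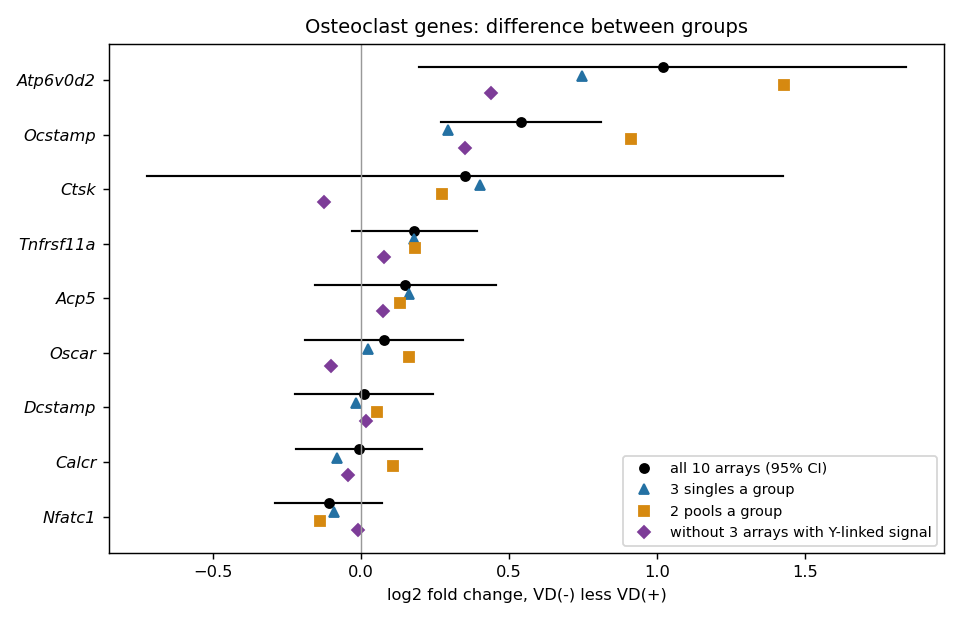
Difference in mean log2 value, VD(-) less VD(+), on the horizontal axis for each osteoclast gene: black points with 95% confidence intervals from all 10 arrays, blue triangles from the 3 singles a group, orange squares from the 2 pools a group, purple diamonds without the 3 arrays with Y-linked signal. The black intervals of Atp6v0d2 (0.20 to 1.84) and Ocstamp (0.27 to 0.81) lie above 0, and the purple diamonds of Ctsk (-0.12) and Oscar (-0.10) lie below it.

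For both resorption genes the 95% confidence interval of the difference included 0. Acp5 encodes tartrate-resistant acid phosphatase (TRAP), the enzyme by which osteoclasts are commonly stained, which macrophages also make. It read 7.90, 8.13 and 8.52 in the VD(+) singles and 8.15 and 8.65 in the pools, against 8.34, 8.31 and 8.38 in the VD(-) singles and 8.62 and 8.44 in the pools. All VD(-) arrays fell inside the VD(+) range, and the SD was 0.12 in VD(-) and 0.31 in VD(+) arrays. The difference was 0.15 (SE 0.14, 95% CI -0.16 to 0.46), with an adjusted p from limma of 0.854 and an exact permutation p of 0.333, and it was 0.074 without the 3 arrays with Y-linked signal.

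Ctsk encodes cathepsin K, the protease that degrades bone collagen. The VD(+) singles read 4.95, 5.95 and 7.49 and the VD(+) pools 6.15 and 7.47, and the VD(-) singles read 7.04, 6.59 and 5.97 and the VD(-) pools 7.62 and 6.54. The VD(+) arrays thus ran from the lowest to nearly the highest of the 10. Within groups Ctsk had an SD of 0.88, and 0.0802% of all genes had a larger one. Atp6v0d2, at 0.67, was exceeded by 0.166% of all genes, so these were the members with the least stable values between arrays of one group. The difference in Ctsk was 0.35 (SE 0.49, 95% CI -0.72 to 1.43, adjusted p from limma 0.913), and it was -0.012 without VD(+) replicate 1 and -0.12 without the 3 arrays with Y-linked signal.

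Acp5 and Ctsk varied together across the 10 arrays. Their log2 values had a Pearson r of 0.914 (permutation p 0.00032, adjusted p 0.0115 over the 36 pairs of members) and a Spearman rho of 0.830 (permutation p 0.00498, adjusted p 0.0835). The r was 0.813 without the 2 arrays farthest from the median of Acp5, 0.983 within VD(+), 0.662 within VD(-) and 0.892 over the 6 singles. Atp6v0d2 had an r of 0.794 with Ctsk and 0.788 with Acp5 (adjusted permutation p 0.0820 for both), and no other pair of members reached an r of 0.788. Since pools may share mice with singles, the 10 arrays may be fewer than 10 independent samples.

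The sequences before the starts of these 2 genes are shown because their values moved together. RefSeq promoter sequences (mouse GRCm38.p6) matched 5 of the 9 members, with 8 starts in all, and the 250 bases before each start were searched on both strands for the NFAT core GGAAA, the AP-1 site TGANTCA, the M-box TCATGTG of MITF and the PU.1 core GAGGAA. Capitals mark matches, which read as the reverse complement where the match is on the other strand, and a GAGGAA followed by A also holds GGAAA. The Ctsk sequence is chr3:95498960-95499209, plus strand, and the Acp5 sequence, from 1 of its 3 annotated starts, is chr9:22130599-22130848, minus strand, each written 5′ to 3′ along the gene.
Ctsk: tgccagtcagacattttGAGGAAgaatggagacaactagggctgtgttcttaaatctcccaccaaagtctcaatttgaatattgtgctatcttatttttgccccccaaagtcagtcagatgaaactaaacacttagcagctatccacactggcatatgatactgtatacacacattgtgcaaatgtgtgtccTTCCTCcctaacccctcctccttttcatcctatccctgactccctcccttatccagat
Acp5: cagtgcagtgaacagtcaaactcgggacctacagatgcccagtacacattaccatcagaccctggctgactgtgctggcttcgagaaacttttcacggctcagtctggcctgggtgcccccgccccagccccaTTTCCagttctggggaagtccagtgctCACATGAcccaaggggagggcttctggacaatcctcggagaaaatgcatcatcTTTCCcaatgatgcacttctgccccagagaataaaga
The Ctsk sequence held 2 PU.1 cores and 0 of the other motifs. The Acp5 sequence held 1 M-box, 90 bases before the start, and 2 NFAT cores. The other 2 annotated starts of Acp5 had 0 M-boxes and 1 NFAT core each, and the start with the M-box was chosen for print after the search. Among 32851 promoters of the same length, 23.3% held a PU.1 core, 55.6% an NFAT core, 3.25% an M-box and 6.75% an AP-1 site. These matches describe the letters in the window and not binding.

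The receptor and signalling members, Tnfrsf11a, Oscar and Nfatc1, each had a confidence interval that included 0. Tnfrsf11a, the gene of RANK, read 4.55, 4.49 and 4.44 in the VD(+) singles and 4.60 and 4.38 in the pools, and 4.87, 4.37 and 4.77 in the VD(-) singles and 4.67 in both pools. Of the VD(-) arrays 4 lay above every VD(+) array and replicate 2 lay below them all. The difference was 0.18 (SE 0.096, 95% CI -0.030 to 0.39), with an exact permutation p of 0.0873 and an adjusted p from limma of 0.747. Without VD(-) replicate 2 it was 0.26 (unadjusted p 0.00797, adjusted p from limma 0.541), and without the 3 arrays with Y-linked signal it was 0.079.

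Oscar, the collagen-binding receptor that signals through an ITAM adaptor, read from 3.34 to 3.89 with a median of 3.68 in VD(+) arrays and from 3.47 to 3.93 with a median of 3.82 in VD(-) arrays. The ranges overlapped almost wholly, and the difference was 0.079 (SE 0.12, 95% CI -0.19 to 0.35, adjusted p from limma 0.923), and it was -0.10 without the 3 arrays with Y-linked signal. Nfatc1, the transcription factor on which osteoclast differentiation turns, was one of the 2 members with a difference below 0. It read 7.03, 6.98 and 6.97 in the VD(+) singles and 6.84 and 7.01 in the pools, and 6.80, 6.80 and 7.11 in the VD(-) singles and 6.72 and 6.86 in the pools. The highest array, at 7.11, was VD(-) replicate 3, and the other VD(-) arrays lay below the VD(+) median of 6.98. The difference was -0.11 (SE 0.082, 95% CI -0.29 to 0.072, exact permutation p 0.175, adjusted p from limma 0.821). Without VD(-) replicate 3 it was -0.17, with an unadjusted p from limma of 0.0289 and an adjusted p of 0.612, and without the 3 arrays with Y-linked signal it was -0.011. NFATc1 is regulated in large part by moving into the nucleus, which RNA does not show.

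Calcr, the calcitonin receptor of mature osteoclasts, read from 3.26 to 3.83 in VD(+) and from 3.47 to 3.59 in VD(-) arrays, all VD(-) arrays lying inside the VD(+) range. The difference was -0.0054 (SE 0.096, 95% CI -0.22 to 0.21, adjusted p from limma 0.996), and -0.044 without the 3 arrays with Y-linked signal. Like Ocstamp, the probe sets of Calcr, Oscar, Dcstamp and Tnfrsf11a had a mean below 4.74, so 5 of the 9 members lay in the dimmer part of the table.

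Around these members, 62 other genes of the osteoclast program were taken in 6 lists, of which 60 had a probe set listing 1 gene only. None of the 60 had an unadjusted p under 0.05 in either direction, beside 3.85% (higher) and 3.23% (lower) of all probe sets, and so 0 passed the adjusted threshold. Without the 3 arrays with Y-linked signal, 2 of the 60 were higher at that unadjusted p and 0 lower. The share of all probe sets in that fit is not given here, also for the marker counts below, so these counts have no share beside them. Without those arrays the list medians changed sign for the activators (0.045), the listed repressors (-0.0042), the resorption machinery (0.030) and the fusion partners (0.049). In the RANK ligand and CSF1 axis the difference was above 0 for 6 of 7 genes, with a median of 0.062. Csf1, the growth factor of macrophage and osteoclast precursors, had a difference of 0.22 (SE 0.11) and Il34, the other ligand of its receptor, 0.27 (SE 0.21). Tnfsf11, the gene of RANK ligand, had a difference of -0.057 (SE 0.13), and Tnfrsf11b, which encodes the decoy receptor osteoprotegerin, 0.085 (SE 0.11). Csf1r, the CSF1 receptor, was at 0.022 (SE 0.056, 95% CI -0.10 to 0.14).

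The 10 genes of ITAM signalling had a median of -0.072, with 4 above 0. The 2 genes with the smallest unadjusted p were Siglec15, a lectin coupled to the adaptor DAP12, at -0.22 (SE 0.12), and the kinase Btk at -0.11 (SE 0.070). Among 13 transcription activators of osteoclasts 4 were above 0, with a median of -0.024, and the AP-1 gene Junb, at -0.34 (SE 0.16), and Prdm1, a repressor of the brakes on Nfatc1, at 0.17 (SE 0.11), had the smallest unadjusted p. Among 7 genes listed as transcriptional repressors 5 were above 0, with a median of 0.075. Irf8, the best known brake on osteoclast formation, was at 0.0068 (SE 0.10) and Id1 at 0.18 (SE 0.098). Cebpa, at 0.13 (SE 0.081), was also on the list, though its place among the repressors is not secure. The count and median of the list depend on that placement.

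Of 15 genes of the resorption machinery 5 had a difference above 0 and the list median was -0.016. Ctsb, a protease of lysosomes, was at 0.17 (SE 0.085) and Itgb3, the beta subunit of the osteoclast integrin, at -0.30 (SE 0.16). Tcirg1, the osteoclast-enriched subunit of the proton pump, was at 0.073 (SE 0.065), and the chloride-proton exchanger Clcn7 at 0.15 (SE 0.093). Mmp9, a matrix protease that neutrophils also store, was at -0.078 (SE 0.14). The 8 genes listed as fusion partners include Atp6v0d1, the d1 subunit gene that most cells carry. Of the 8, 3 were above 0, with a median of -0.023, and the tetraspanin gene Cd81 was at 0.14 (SE 0.093). In none of these lists was the adjusted p of any gene, from limma, under 0.717.

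**Figure D3:**
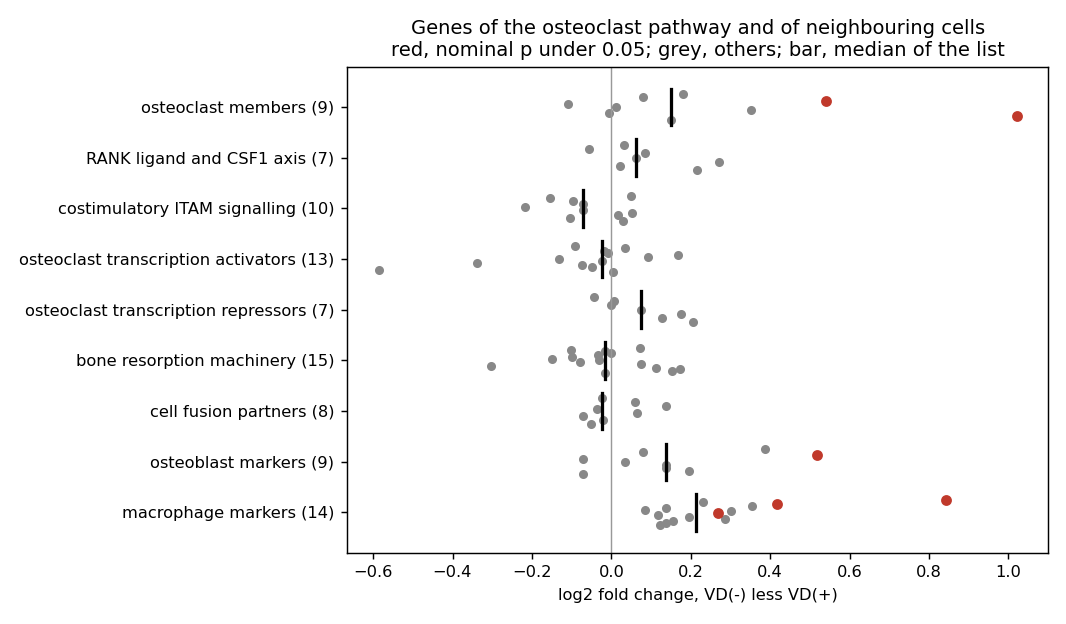
Difference in mean log2 value, VD(-) less VD(+), on the horizontal axis for each measured gene of the osteoclast members, of 6 lists of the osteoclast program and of the osteoblast and macrophage markers, with the number measured in brackets; red points have an unadjusted p under 0.05 and bars are list medians. The 60 pathway genes are all grey, while 2 members, 1 osteoblast marker and 3 macrophage markers are red, and all 14 macrophage markers lie above 0.

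Markers of neighbouring cells moved with several members. At an unadjusted p under 0.05, 3 of 14 macrophage markers were higher in VD(-), beside 3.85% of all probe sets. All 14 had a difference above 0 (median 0.21), beside 50.3% of all genes, and none passed the adjusted threshold. Their mean log2 value ran from 7.31 to 7.90 in VD(+) and from 7.73 to 8.26 in VD(-) arrays. Without the 3 arrays with Y-linked signal, 10 of the 14 were above 0 and 1 had an unadjusted p under 0.05, and the median was 0.047. The lysosomal gene Cd68 had a difference of 0.27 (SE 0.078, adjusted p from limma 0.482) and the complement receptor gene Vsig4 0.84 (SE 0.28, adjusted p 0.560). Of 9 osteoblast markers measured, 7 were above 0. Of the 9, 1, Phex, was higher at an unadjusted p under 0.05 (difference 0.52, SE 0.17, adjusted p from limma 0.545), beside 3.85% of all probe sets. The matrix gene Sparc was at 0.39 (SE 0.21). The mean of these markers ran from 4.87 to 5.18 in VD(+) and from 4.94 to 5.49 in VD(-) arrays. Without the 3 arrays with Y-linked signal, with VD(-) replicates 2 and 3 left, 2 of 9 were above 0 and the median was -0.095. Mepe, a marker of late osteoblasts and osteocytes, was near the floor of the table, at 2.14 and 2.07. Of 7 B cell markers, 6 were below 0, with a median of -0.28. At an unadjusted p under 0.05, 3 of the 7 were lower in VD(-), beside 3.23% of all probe sets. Fcer2a, the gene of CD23, was lower in VD(-), at -0.58 (SE 0.081), with an adjusted p of 0.0305 in limma, and Ms4a1, the gene of CD20, was at -0.45 (SE 0.14, adjusted p 0.521). Without the 3 arrays with Y-linked signal, 0 of the 7 were above 0, with a median of -0.58, and 0 passed the adjusted threshold. In that fit 5 of the 7 were lower at an unadjusted p under 0.05. No share of all probe sets stands beside this count or the macrophage count above, so neither can be set against the rest of the array. Of 7 monocyte markers, 5 were above 0 with a median of 0.049, and the chemokine receptor gene Ccr2 was at 0.28 (SE 0.13) and the calcium-binding protein gene S100a4 at -0.26 (SE 0.14). The part of any of these cell types in the members' values was not tested.

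Across the 10 arrays, Ctsk followed the mean of the macrophage markers with a Pearson r of 0.909 (permutation p adjusted over 27 relations 0.00135) and a Spearman rho of 0.927 (adjusted p 0.00405). That r was 0.992 within VD(+), 0.970 within VD(-), 0.921 over the 6 singles and 0.827 without the 2 arrays farthest from the median of Ctsk. Atp6v0d2 had an r of 0.892 with the macrophage markers (adjusted permutation p 0.00135) and 0.884 with the osteoblast markers (adjusted permutation p 0.00225). Ctsk also followed the osteoblast markers, with an r of 0.817 (adjusted permutation p 0.0205), 0.936 within VD(-) and 0.910 within VD(+). Acp5 had an r of 0.870 with the macrophage markers (adjusted permutation p 0.00749). For Ocstamp the r was 0.546 with the macrophage and 0.515 with the osteoblast markers, with adjusted permutation p of 0.244 and 0.264. With the macrophage markers the r of Ocstamp was 0.924 over the 6 singles, 0.391 within VD(-) and 0.0543 within VD(+). No member had an r with the mean of 7 monocyte markers that passed the adjusted threshold.

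**Figure D4:**
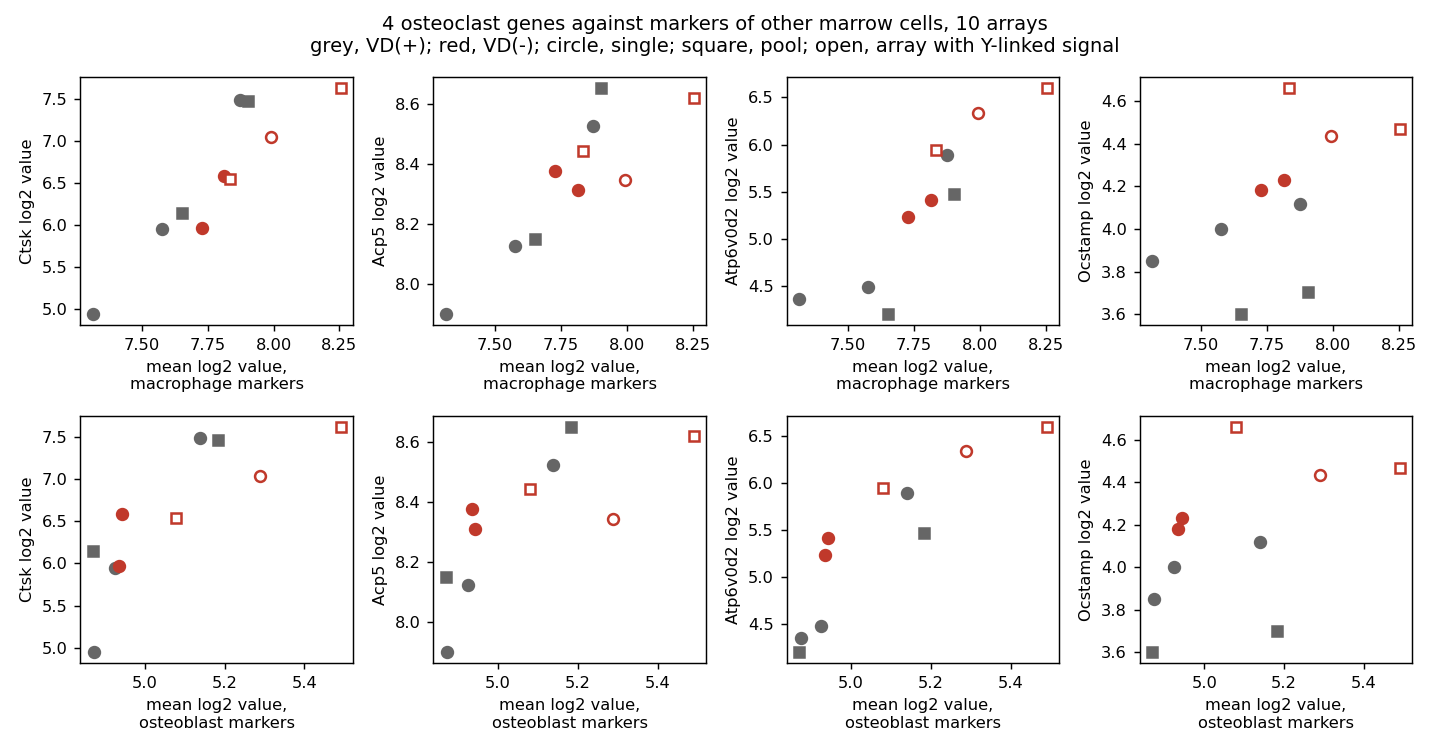
Log2 value of Ctsk, Acp5, Atp6v0d2 and Ocstamp (vertical axes) against the mean log2 value of 14 macrophage markers (upper row) and of 9 osteoblast markers (lower row) on each of the 10 arrays; grey is VD(+), red VD(-), circles singles, squares pools, open symbols arrays with Y-linked signal. Ctsk rises along the macrophage axis in both groups (r 0.909). The groups of Ocstamp do not overlap on the vertical axis (r 0.546 with the macrophage markers). The groups were not compared at matched marker levels.

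The marker means were also used as a covariate, chosen after seeing the data. Ocstamp then had a difference of 0.49 with the macrophage markers (unadjusted p 0.00851, adjusted p from limma 0.559) and 0.48 with the osteoblast markers (unadjusted p 0.00425, adjusted p 0.388). The difference in Atp6v0d2 was 0.36 with the macrophage markers (unadjusted p from limma 0.191, adjusted p 0.882). With the osteoblast markers it was 0.57 (unadjusted p from limma 0.0145, adjusted p 0.564). Ctsk went to -0.64 with the macrophage markers (unadjusted p from limma 0.00387, adjusted p 0.466). Several of these markers and members are made by the same lineage, and the part of either in the other was not tested.

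Over the 10 arrays, the mean of the members' z-scores ran from -0.61 to 0.54 in VD(+) and from -0.17 to 0.56 in VD(-) recipients. VD(+) replicate 3, at 0.54, stood among the VD(-) arrays. Since each member is part of that mean, members were set against the mean of the other 8. Atp6v0d2 had an r of 0.931 with it, Ctsk, Ocstamp, Acp5 and Oscar between 0.610 and 0.635, Calcr 0.228, Tnfrsf11a 0.145, Dcstamp -0.370 and Nfatc1 -0.582. The 6 genes outside the members whose pattern was most like the mean of all 9 by Pearson r over the 10 arrays were Nom1 (0.934), Utp15 (0.922), Gas2l3 (0.922), Cenpn (0.920), Cebpa (0.920) and Atpaf2 (0.917), out of 16706 protein-coding genes compared. Each of the 6 had a difference between 0.11 and 0.21 and an adjusted p from limma of at least 0.747, with groups that overlapped.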

How the data were processed

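RNA from BM of FL-HSC recipients was amplified, biotin-labelled and hybridized to Affymetrix arrays. The probe sets are those of a whole-transcript gene array, although a miRNA array is named in the methods, and the platform annotation paired them with genes. The deposited values are log2 expression after RMA by the authors, with Partek per the labels; background and normalization were thus set upstream, and the genome build is not given in the sources used here. Precision is limited by the number of arrays. From these values, differences between 5 VD(-) and 5 VD(+) arrays were fitted across all 35556 probe sets with limma 3.58.1 (R 4.3.3), with Benjamini-Hochberg adjustment. Members were also compared by exact two-sided permutation of array labels in scipy 1.17.1. Correlations used 100000 permutations drawn with numpy 2.4.6. The scripts were tested on simulated data. A gene was read from the probe set with the highest mean among those listing 1 gene.

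The members and the lists were chosen with earlier results of these data known. Genes named besides the members were at most the 2 with the smallest unadjusted p of each list described, the pathway genes Tnfsf11, Tnfrsf11b, Csf1r, Csf1, Atp6v0d1, Tcirg1, Clcn7, Mmp9 and Irf8 and the 6 genes most like the members. S100a8, Alas2, Mepe, Xist and the Y-linked genes were added as checks of the samples. Replicate numbers did not pair the arrays (same-numbered deviations correlated between -0.052 and 0.061), so the replicate block is an alternative. Alternatives covered the test, filter, normalization, weights, pooling, arrays with Y-linked signal and each array left out.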

Additional observations from a re-analysis of the deposited data

How the results depend on the processing

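None of the 9 osteoclast genes had an adjusted p under 0.05 in any of 23 alternatives, the lowest being 0.127. Ocstamp (0.29 to 0.91), Atp6v0d2 (0.36 to 1.43), Tnfrsf11a (0.079 to 0.26) and Nfatc1 (-0.17 to -0.011) kept their direction in every alternative that measured them. Others turned. Ctsk went to -0.12 without the arrays with Y-linked signal and to -0.19 and -0.64 with osteoblast and macrophage markers as covariate. Oscar went to -0.10, -0.024 and -0.055 in the same settings, and Acp5 to -0.088 with the macrophage markers. Without the arrays with Y-linked signal the SE was 0.68 for Ctsk and 0.16 for Oscar, so neither value can be told from 0. Calcr went to 0.0096 with cyclic loess, 0.012 with array weights and 0.11 in pools alone, and Dcstamp to -0.018 in singles alone. With 1 array left out at a time, Ctsk ranged from -0.012 to 0.62, Oscar from -0.0051 to 0.15, Calcr from -0.071 to 0.070 and Dcstamp from -0.069 to 0.089. The cause was not tested. For the alternatives the share of all probe sets at an unadjusted p under 0.05 is not given here, so the counts that follow have no share beside them. The count of members higher at an unadjusted p under 0.05, 2 here, was 1 among brighter probe sets (4 members measured), without the arrays with Y-linked signal, with the replicate block and with macrophage markers as covariate, 0 in singles alone, and 1 to 3 with 1 array left out. The count lower was 1 with macrophage markers as covariate and 0 to 1 with 1 array left out. Of the 60 pathway genes, 0 here in either direction, 1 was higher with trend and robust fitting, 2 without the arrays with Y-linked signal, 1 with each marker covariate and 0 to 1 with 1 array left out; 1 was lower with cyclic loess, 2 with the mean of probe sets per gene, 2 with osteoblast and 1 with macrophage markers as covariate, and 0 to 2 with 1 array left out. The replicate block left Ocstamp at 0.54 (adjusted p 0.582) and Atp6v0d2 at 1.02 (unadjusted p 0.0505), and took the probe sets past the adjusted threshold from 42 to 3. That count was 9 with the methods' t-test, 12 without the arrays with Y-linked signal, 1 in singles alone, 2 in pools alone, 17 and 5 with osteoblast and macrophage markers as covariate, and 7 to 43 with 1 array left out. RMA values carry no detection call, so the 5 members below the median of all probe sets are those the signal limits most.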
